A study of Homo sapiens with 9 samples.

Results

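The 10 genes described here are the best-known survival and death members of the BCL2 family: *BCL2*, *BCL2L1*, *MCL1* and *BCL2L2*, which keep cells alive, *BAX* and *BAK1*, the effectors, and *BCL2L11*, *BBC3*, *PMAIP1* and *BID*, the BH3-only genes. They were picked by gene symbol from the 60662 genes of the table, and each symbol matched a single row. RNA was sequenced from SET2 cells, a human megakaryoblastic line that grew from a myeloproliferative neoplasm after it had become acute myeloid leukemia and that carries an activating *JAK2* mutation. All 9 libraries came from untreated cells of this line: 3 from wild-type (WT) cells, 3 from *DYRK1A* KO clone 11H1 and 3 from *DYRK1A* KO clone 14B5. *DYRK1A* encodes a dual-specificity kinase on chromosome 21. The clones were made by CRISPR/Cas9 delivered as a ribonucleoprotein and were each grown from 1 sorted cell, and those with only out-of-frame indels were kept as KO. Each clone was compared with WT cells, to see what loss of the kinase changed. The clones had passed through a single-cell bottleneck, and the sources used here do not describe such a step for the sequenced WT cells. The loss of *DYRK1A* and the founding of a clone thus cannot be told apart within either comparison. The 3 libraries of a clone are repeats of that clone, and nothing in the labels says whether they came from separate cultures, so every p-value below measures only the spread between these libraries.

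BCL2 family proteins decide whether the outer membrane of the mitochondrion stays closed. BAX and BAK1 can open pores in it and release cytochrome c, which sets off the caspases. BCL2, BCL-XL (from *BCL2L1*), MCL1 and BCL-W (from *BCL2L2*) hold these effectors back, and the BH3-only proteins BIM (from *BCL2L11*), PUMA (*BBC3*), NOXA (*PMAIP1*) and BID occupy the survival proteins or wake the effectors. In megakaryocytes and platelets BCL-XL and MCL1 are known as the main survival proteins, and BCL-XL and MCL1 transcription is a known output of JAK-STAT signaling. MCL1 and NOXA are short-lived proteins, so RNA is only 1 layer of their control, and BCL2L1 and MCL1 RNAs are spliced into forms with opposite activity that a count per gene adds together.

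The libraries held 32347779 to 60272245 expected counts each. The share of counts from mitochondrial genes was 3.54 to 6.03% across the WT libraries, with WT 1 at the top. It was 3.30 to 3.92% across 14B5 and 7.23 to 7.39% across 11H1. *DYRK1A* RNA was at 196 to 218 CPM (counts scaled to library size by the trimmed mean of M values, TMM) in WT, 188 to 192 in 11H1 and 174 to 191 in 14B5, with log2 fold changes of -0.091 (adjusted p = 0.131) and -0.17 (adjusted p = 0.0278). An indel need not remove the transcript, so this RNA level does not check the KO label. The cells carried markers of the labelled type. The integrin gene *ITGA2B* was at 910.5 to 927 CPM in WT, 638 to 665 CPM in 11H1 and 593 to 621 CPM in 14B5, and *GATA1* was at 223 to 293 CPM across all libraries. Other markers of this lineage were much lower in the clones. *GP9* was at 20.2 to 24.4 CPM in WT, 3.76 to 4.81 CPM in 11H1 and 0.574 to 1.003 CPM in 14B5, and *ITGB3* at 49.8 to 61.2, 19.3 to 21.04 and 5.01 to 6.71 CPM. *TAL1* was higher, at 239 to 249 CPM in WT, 328 to 342 CPM in 11H1 and 305 to 313 CPM in 14B5. The summed CPM of the blood cell markers *PTPRC*, *SPN* and *CD53* was at least 901 in every library. Lymphocyte markers summed to at most 4.01 CPM and fibroblast markers to at most 2.34 CPM. The epithelial list rose from 5.57 to 7.22 CPM in WT to 21.5 to 24.9 in 11H1 and 33.3 to 34.9 in 14B5, nearly all of it *CDH1*, with *KRT19* at 0 to 3 counts. The part of these marker shifts and of the mitochondrial share in the results below was not tested.

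All 10 members were expressed well above the level of 3 counts below which a count of 0 cannot be told from a low one. The lowest was *BCL2* at 149 to 318 counts and the highest *MCL1* at 8584 to 17697 counts. All 10 passed the filter on low counts in every comparison, so none of them was left out of a test.

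Of the 10 members, 7 differed between 11H1 and WT (3 higher, 4 lower) and 7 between 14B5 and WT (3 higher, 4 lower), by edgeR's quasi-likelihood test with Benjamini-Hochberg adjustment at 0.05. These counts must be read against the whole transcriptome, in which 64.6% of the tested genes passed the same test in 11H1 vs WT and 53.5% in 14B5 vs WT. By direction, 31.8% of all tested genes were higher and 32.8% lower in 11H1, and 24.9% were higher and 28.7% lower in 14B5. The share of members called was thus near the background in 11H1. The description below therefore rests on which members moved, which way and how far. *MCL1* and *BCL2L11* were higher and *BCL2*, *BCL2L1*, *PMAIP1* and *BID* lower in each clone. *BCL2L2* was higher only in the test of 11H1 and *BBC3* only in that of 14B5, and the direct test between the clones separated both genes. The effectors *BAX* and *BAK1* did not pass in either clone. Both comparisons use the same 3 WT libraries, so a WT library that stands apart would move them together. WT 1 differed most from the other WT libraries. Chi-square per gene, a difference scaled to counting error, was 21.3 against WT 2 and 35.8 against WT 3. It was 12.1 between WT 2 and WT 3, 4.04 to 5.62 within 11H1 and 8.27 to 17.6 within 14B5.

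**Figure D1:**
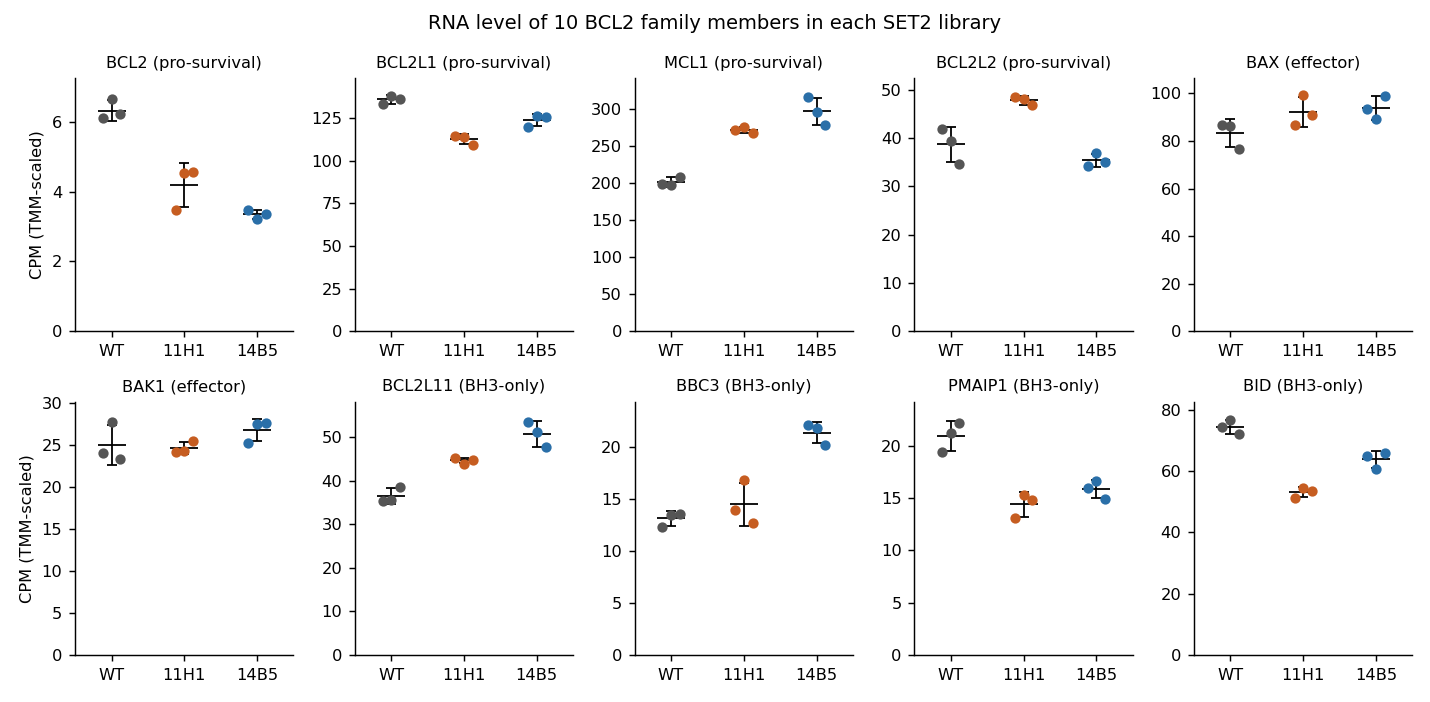
Each panel plots 1 member, with CPM on TMM-scaled library sizes on the vertical axis from 0 and the WT, 11H1 and 14B5 groups on the horizontal axis. Points are libraries, bars are the mean and SD of 3 libraries. *MCL1* sits at 197 to 209 CPM in WT and at 268 to 316 CPM in the 6 clone libraries, while *BCL2* sits at 6.10 to 6.67 CPM in WT and at 3.21 to 4.56 CPM in the clones.

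Among the members that moved the same way in both clones, the stretches of DNA just before the start site are shown for *BCL2L11*, which rose, and for *BCL2L1* and *PMAIP1*, which fell, so that the letters behind the motif counts can be seen. They are the parts of RefSeq promoter windows (GRCh38.p14) that lie before the start site and outside every exon of GENCODE v29, written 5′ to 3′ on the strand of the gene. *BCL2L11* is shown at chr2:111120664-111120913 (plus strand), inside the span that GENCODE v29 gives this gene but outside its exons. *PMAIP1* is shown at chr18:59899746-59899947 (plus strand) and *BCL2L1* at chr20:31723990-31724213 (minus strand). Capitals mark the FOXO motif GTAAACA, and would mark the STAT core TTCNNNGAA or the E-box CACGTG.
BCL2L11: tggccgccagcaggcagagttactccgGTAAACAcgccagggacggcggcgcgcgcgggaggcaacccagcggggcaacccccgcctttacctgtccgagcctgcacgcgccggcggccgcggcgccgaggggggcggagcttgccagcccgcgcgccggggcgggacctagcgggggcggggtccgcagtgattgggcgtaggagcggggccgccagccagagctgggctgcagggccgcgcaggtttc
PMAIP1: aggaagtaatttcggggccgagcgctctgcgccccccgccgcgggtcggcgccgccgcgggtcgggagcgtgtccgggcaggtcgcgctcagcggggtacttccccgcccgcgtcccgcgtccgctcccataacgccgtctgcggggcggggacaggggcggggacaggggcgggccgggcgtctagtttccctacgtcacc
BCL2L1: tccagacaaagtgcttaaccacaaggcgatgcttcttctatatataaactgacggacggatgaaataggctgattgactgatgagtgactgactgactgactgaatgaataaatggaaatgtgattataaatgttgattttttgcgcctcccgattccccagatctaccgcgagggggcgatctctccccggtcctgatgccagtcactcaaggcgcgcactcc

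Windows of 300 bases, from 250 before to 50 after a start site, were present for 8 of the 10 members, with several start sites for *BCL2L1* and *BID*. *MCL1* and *BCL2L2* had none in the table used. Motifs were searched on both strands. The STAT core TTCNNNGAA, the sequence STAT dimers bind, was in none of the windows of these 8 members and in 7.66% of all 35116 promoter windows. The FOXO motif GTAAACA was in the *BCL2L11* window, 223 bases before the start site, and in 3.42% of all windows; no other member's window held it. The E-box CACGTG, which MYC-type factors bind, was in 7.26% of all windows and occurred 4 times in the *BAX* window, once in that of *BBC3* and in windows of *BID*. The GC box GGGCGG was common, in 45.0% of all windows, with 4 copies in the *PMAIP1* stretch and 3 in the *BCL2L11* stretch. A match describes the letters of the window and is neither a shown binding site nor a cause of a change. A window without a match says only that these letters are not in it.

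The pro-survival genes split. *BCL2* and *BCL2L1* were lower in both clones, *MCL1* was higher in both, and *BCL2L2* was higher in 11H1 alone, where the direct test showed a difference from 14B5. The group thus had no common direction: 2 members rose and 2 fell in 11H1, and 1 rose and 2 fell in 14B5.

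*BCL2* (ENSG00000171791.13, chromosome 18, 63123346 to 63320128, minus strand, GRCh38) encodes the founding survival protein of the family and is the target of venetoclax. Its level was 6.10, 6.67 and 6.22 CPM in WT 1 to 3, then 3.47, 4.54 and 4.56 CPM in 11H1 and 3.48, 3.21 and 3.36 CPM in 14B5. All 6 clone libraries were below all 3 WT libraries. *BCL2* fell by 34.4% in 11H1 (log2 fold change -0.61, SE 0.12, adjusted p = 0.000683, edgeR), and fell by 47.7% in 14B5 (-0.94, SE 0.10, adjusted p = 2.13e-05, edgeR). Of the 10 members this was the largest fall in each clone. The level was higher in 11H1 than in 14B5 by a log2 difference of 0.32 (SE 0.13, adjusted p = 0.0482, edgeR), but 11H1 1 lay within the range of 14B5 and this call held in 5 of 13 alternatives. Leaving out any of 11H1 2, 11H1 3, 14B5 1, 14B5 2 or 14B5 3 ended it, with adjusted p = 0.0628 to 0.176.

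*BCL2L1* (ENSG00000171552.13, chromosome 20, 31664452 to 31723989, minus strand) encodes BCL-XL. It was at 133, 138 and 136 CPM in WT, 115, 114 and 109 CPM in 11H1 and 119.7, 126 and 125 CPM in 14B5. The 3 groups did not overlap: WT was the highest and 11H1 the lowest. It fell by 16.8% in 11H1 (log2 fold change -0.27, SE 0.045, adjusted p = 0.000237). In 14B5 it fell by 9.86% (-0.15, SE 0.044, adjusted p = 0.0159), and this smaller change passed in 8 of 13 alternatives. It was lost without WT 2 (adjusted p = 0.0689), without 14B5 1 (0.0952) and without 14B5 2 (0.0551). The direct test placed 11H1 below 14B5 by a log2 difference of -0.13 (SE 0.044, adjusted p = 0.0191), lost without 11H1 3 (adjusted p = 0.0653) and without 14B5 2 (0.0567).

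*MCL1* (ENSG00000143384.13, chromosome 1, 150574551 to 150579738, minus strand), whose protein binds *BAK1*, BIM and NOXA, was the most abundant member per length in every group. It measured 199, 197 and 209 CPM in WT, 272, 275 and 268 CPM in 11H1 and 316, 296 and 279 CPM in 14B5. Every clone library was above every WT library. The rise was 35.4% in 11H1 (log2 fold change 0.44, SE 0.044, adjusted p = 3.84e-06) and 45.6% in 14B5 (0.54, SE 0.056, adjusted p = 2.31e-05), and both calls held in all 13 alternatives. The clones differed from each other by a log2 difference of only -0.12 (SE 0.049, adjusted p = 0.0481), a call that held in 5 of 13 alternatives. It was lost without 11H1 1, 11H1 2, 11H1 3, 14B5 1 or 14B5 2, with adjusted p from 0.0782 to 0.145.

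*BCL2L2* (ENSG00000129473.9, chromosome 14, 23298790 to 23311759, plus strand) encodes BCL-W. It was at 41.9, 39.3 and 34.7 CPM in WT, 48.4, 48.1 and 46.8 CPM in 11H1 and 34.3, 36.8 and 35.0 CPM in 14B5. The 11H1 libraries were above all others, while 14B5 overlapped the lower end of WT. *BCL2L2* rose by a log2 fold change of 0.31 in 11H1 (SE 0.066, adjusted p = 0.00134), and its value in 14B5 was -0.14 (SE 0.071, adjusted p = 0.111; adjusted p = 0.0140 without WT 3). The direct test separated the clones by 0.44 (SE 0.047, adjusted p = 7.30e-06). This gene shares exons with others: 813 exon bases, 19.4% of its exon length, with the read-through gene *BCL2L2-PABPN1* on the same strand (8.08 to 55.6 counts), and 206 with *PPP1R3E* on the opposite strand (360 to 849 counts). *PPP1R3E* had log2 fold changes of 0.27 in 11H1 and -0.72 in 14B5, the same signs as *BCL2L2*. *BCL2L2-PABPN1* had 0.66 in 11H1 (adjusted p = 0.0450, edgeR) and -0.024 in 14B5 (adjusted p = 0.967), also the same signs. The expected counts of *BCL2L2* were fractional in all 9 libraries. Whether the counting used strand is not given in the sources used here, and how reads of the overlap were shared out was not tested.

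The effectors showed no change that passed the test. *BAX* (ENSG00000087088.20, chromosome 19, 48954815 to 48961798, plus strand) was at 86.9, 86.4 and 76.6 CPM in WT, 86.7, 99.1 and 90.7 CPM in 11H1 and 93.4, 89.1 and 98.9 CPM in 14B5. The 14B5 libraries were all above WT, and 11H1 1 lay within the WT range. The log2 fold changes were 0.15 in each clone (SE 0.063 in each, adjusted p = 0.0533 in 11H1 and 0.0609 in 14B5), which is close to the threshold. The threshold was passed in 4 of 13 alternatives in 11H1, among them without WT 1 (adjusted p = 0.0397) and without 11H1 1 (0.0430), and in 6 of 13 in 14B5, among them without WT 1 (0.0495) and without 14B5 2 (0.0393). Whether *BAX* rose slightly is not settled by these libraries.

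*BAK1* (ENSG00000030110.13, chromosome 6, 33572547 to 33580293, minus strand), the effector that sits in the mitochondrial membrane in healthy cells, was at 24.0, 27.8 and 23.4 CPM in WT, 24.2, 24.4 and 25.5 CPM in 11H1 and 25.3, 27.5 and 27.7 CPM in 14B5. The 3 groups overlapped. Its log2 fold changes were -0.017 in 11H1 (SE 0.070, adjusted p = 0.848) and 0.083 in 14B5 (SE 0.073, adjusted p = 0.364), and -0.12 between the clones (SE 0.054, adjusted p = 0.0780; 0.0244 without 14B5 1).

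The BH3-only genes moved against each other. *BCL2L11* rose in both clones and *BBC3* in 14B5, whereas *PMAIP1* and *BID* fell in both clones. The group counted 1 gene higher and 2 lower in 11H1, and 2 higher and 2 lower in 14B5.

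*BCL2L11* (ENSG00000153094.23, chromosome 2, 111119378 to 111168447, plus strand) encodes BIM, which binds all the survival proteins. It measured 35.4, 35.5 and 38.6 CPM in WT, 45.3, 43.9 and 44.7 CPM in 11H1 and 53.6, 51.3 and 47.6 CPM in 14B5. The groups were fully apart, in the order WT, 11H1, 14B5. It rose by 23.1% in 11H1 (log2 fold change 0.30, SE 0.051, adjusted p = 0.000285) and by 37.8% in 14B5 (0.46, SE 0.060, adjusted p = 0.000111). The direct test between the clones gave -0.18 (SE 0.052, adjusted p = 0.00950), and all 3 calls held in all 13 alternatives. *BCL2L11* shares 727 exon bases, 10.9% of its exon length, with *MIR4435-2HG* on the opposite strand (2787 to 7700 counts). That gene fell, with log2 fold changes of -0.87 in 11H1 and -0.68 in 14B5, opposite in sign to *BCL2L11*. The expected counts of *BCL2L11* were whole numbers in every library.

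*BBC3* (ENSG00000105327.17, chromosome 19, 47220822 to 47232766, minus strand) encodes PUMA. It was at 12.3, 13.5 and 13.6 CPM in WT, 13.9, 16.8 and 12.7 CPM in 11H1 and 22.1, 21.8 and 20.2 CPM in 14B5. Every 14B5 library was above every other library, and 11H1 overlapped WT. *BBC3* rose by 61.1% in 14B5 (log2 fold change 0.69, SE 0.066, adjusted p = 1.48e-05), the largest rise of any member. Its value in 11H1 was 0.15 (SE 0.10, adjusted p = 0.199). The difference between the clones was -0.56 (SE 0.087, adjusted p = 0.000144) and held in all 13 alternatives.

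*PMAIP1* (ENSG00000141682.11, chromosome 18, 59899948 to 59904306, plus strand) encodes NOXA, which binds *MCL1* and hastens its breakdown. It was at 19.4, 21.2 and 22.2 CPM in WT, 13.1, 15.3 and 14.8 CPM in 11H1 and 15.98, 16.6 and 14.9 CPM in 14B5. All clone libraries were below WT, and the clones overlapped. *PMAIP1* fell by 31.2% in 11H1 (log2 fold change -0.54, SE 0.076, adjusted p = 6.23e-05), and fell by 25.1% in 14B5 (-0.42, SE 0.070, adjusted p = 0.000624). The clones differed by -0.14 (SE 0.073, adjusted p = 0.115), with approximate bounds of -0.28 and 0.01 at 2 SE on either side.

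*BID* (ENSG00000015475.18, chromosome 22, 17734138 to 17774770, minus strand) links death receptors to mitochondria once caspase-8 has cut its protein. It measured 74.4, 76.6 and 72.2 CPM in WT, 51.3, 54.6 and 53.7 CPM in 11H1 and 65.01, 60.8 and 66.1 CPM in 14B5. The groups were fully apart, with 11H1 the lowest. It fell by 28.3% in 11H1 (log2 fold change -0.48, SE 0.047, adjusted p = 3.17e-06), and fell by 15.02% in 14B5 (-0.23, SE 0.051, adjusted p = 0.00303). The direct test gave -0.26 (SE 0.049, adjusted p = 0.000559), and all 3 calls held in all 13 alternatives.

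**Figure D2:**
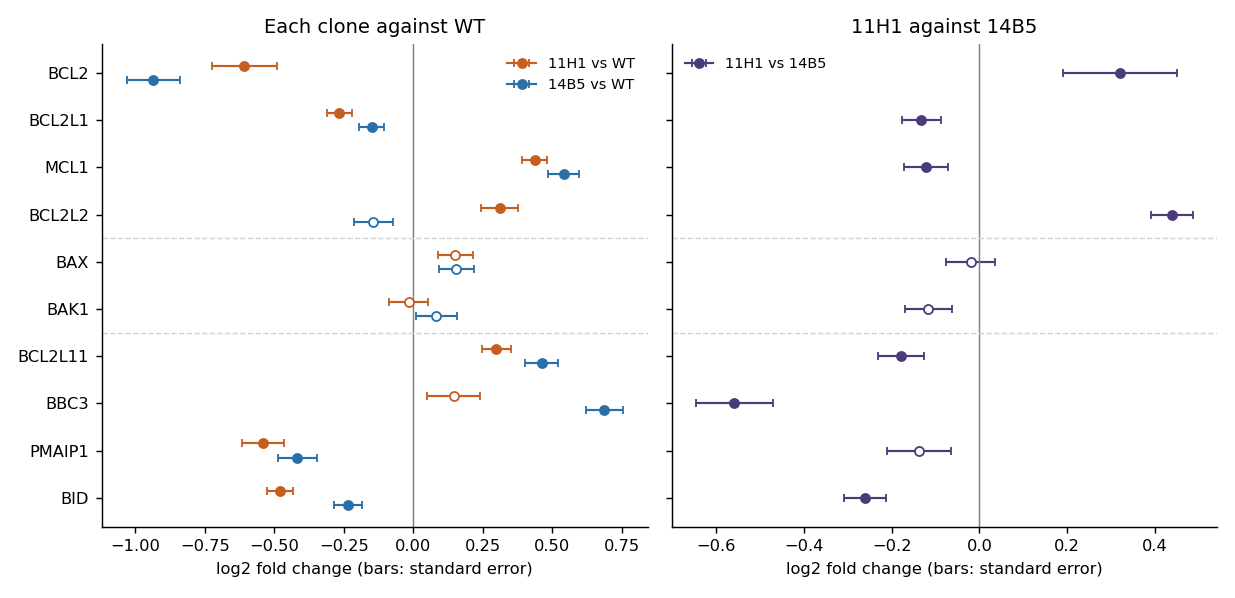
The log2 fold change of each member is on the horizontal axis, with the standard error as bars. The left panel sets each clone against WT and the right panel 11H1 against 14B5, and filled points passed an adjusted p of 0.05 while open points did not. *BCL2* lies farthest to the left in each clone, at -0.61 and -0.94, and *BBC3* is filled only for 14B5 at 0.69.

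Between the clones, 7 of 10 members passed the direct test, 2 higher and 5 lower in 11H1, where 63.7% of all tested genes passed it (31.6% higher and 32.1% lower). The count fell to 4 without 11H1 3 and to 4 without 14B5 2. *BCL2L2*, *BBC3*, *BCL2L11* and *BID* were the members whose call held in every alternative, and the libraries of the clones did not overlap for these 4 or for *BCL2L1* and *MCL1*. That is 6 of 10 members, where 68.7% of all tested genes did not overlap. In 11H1 vs WT 7 members did not overlap, with 68.7% of all genes, and in 14B5 vs WT 8 members, with 61.0%.

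Levels were compared between genes per length, as CPM per kilobase of exon (RPKM). In WT the order of mean RPKM was *MCL1* (46.1), *BCL2L1* (41.0), *BAX* (32.2), *BID* (16.7), *BAK1* (11.3), *PMAIP1* (9.36), *BCL2L2* (9.22), *BCL2L11* (5.48), *BBC3* (4.12) and *BCL2* (0.538). Neighbours in this order were apart in all 3 WT libraries, except *PMAIP1* and *BCL2L2*. *BCL2* was thus the scarcest of the 10 RNAs in WT cells, with the reservation that its exon length of 11765 bases is that of all its transcripts merged. In 11H1 the RPKM of *BAX* (35.6) and *BCL2L1* (33.9) overlapped, and so did those of *BID* (11.96), *BCL2L2* (11.4) and *BAK1* (11.2). In 14B5 *BCL2L1* (37.4) and *BAX* (36.3) overlapped, as did *BCL2L11* (7.63), *PMAIP1* (7.08) and *BBC3* (6.72). *MCL1* stayed first, at 62.1 RPKM in 11H1 and 67.9 RPKM in 14B5, and *BCL2* last, at 0.356 and 0.285 RPKM.

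The summed RPKM of the 4 pro-survival genes was 96.9 ± 0.665 (SD, n = 3) in WT, 107.8 ± 1.83 in 11H1 and 114 ± 3.40 in 14B5. The composition of this pool shifted toward *MCL1*. *MCL1* made up 47.6% ± 1.18 of it in WT, 57.6% ± 0.347 in 11H1 and 59.5% ± 2.08 in 14B5 (SD, n = 3). *BCL2L1* made up 42.3% in WT, 31.5% in 11H1 and 32.8% in 14B5, and no clone library reached the lowest WT share of 41.7%. *BCL2L2* took 9.52%, 10.6% and 7.41%, and *BCL2* 0.555%, 0.330% and 0.250%. The RNA of the survival side in these cells was thus mostly *MCL1* and *BCL2L1*, in all 3 groups.

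Among the BH3-only genes the summed RPKM was 35.7 ± 0.945 in WT, 29.6 ± 1.24 in 11H1 and 35.8 ± 0.884 in 14B5 (SD, n = 3). *BID* was the largest part, with 46.9% in WT, 40.4% in 11H1 and 40.2% in 14B5. *PMAIP1* took 26.2%, 21.7% and 19.8%. The share of *BCL2L11* was 15.3% in WT, 22.7% in 11H1 and 21.3% in 14B5, and that of *BBC3* 11.5%, 15.3% and 18.8%. The summed RPKM of 14B5 fell within 1 SD of WT although each of its 4 genes had changed, the rises of *BCL2L11* and *BBC3* standing against the falls of *PMAIP1* and *BID*. The effectors summed to 43.5 ± 3.01 in WT, 46.8 ± 2.44 in 11H1 and 48.4 ± 2.08 in 14B5 (SD, n = 3).

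**Figure D3:**
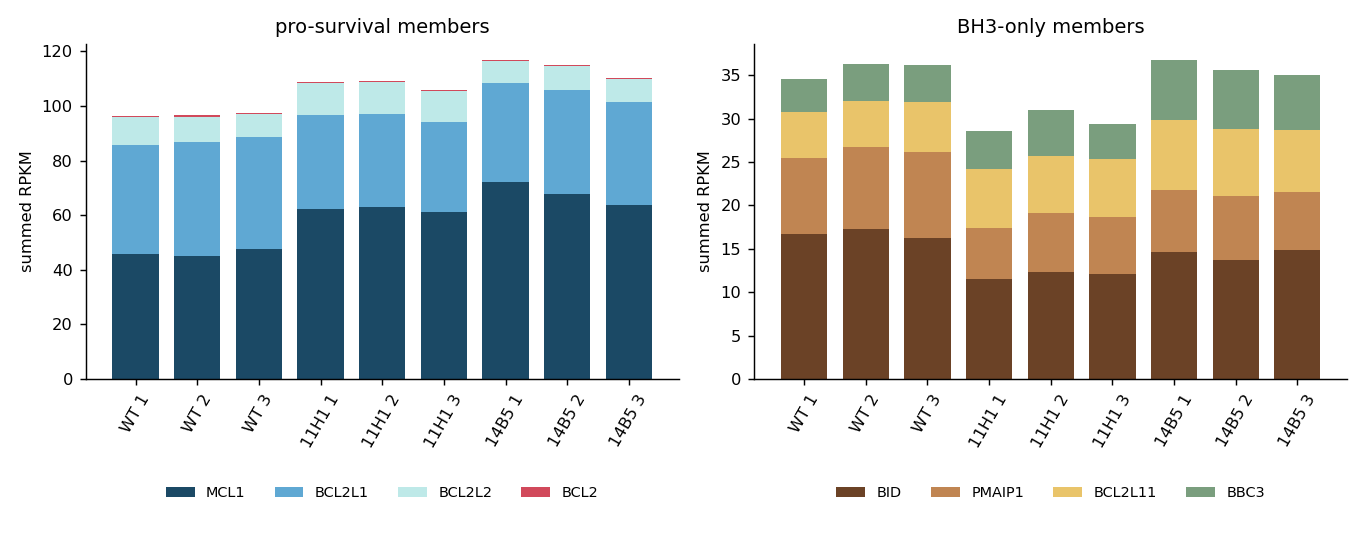
Stacked bars give the RPKM of each pro-survival member (left) and each BH3-only member (right) in each of the 9 libraries, from 0. The *MCL1* segment grows from 45.0 to 47.7 RPKM in WT to 61.3 to 72.3 RPKM in the clones, while the *BCL2* segment is barely visible in any bar.

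Ratios of RPKM within a library do not depend on library size. *MCL1* was 85.9 ± 5.67 times *BCL2* in WT, 177 ± 29.3 times in 11H1 and 239 ± 13.4 times in 14B5 (SD, n = 3). The ratio of *MCL1* to *PMAIP1*, a survival gene to its BH3-only antagonist, was 4.94 ± 0.278 in WT, 9.71 ± 0.818 in 11H1 and 9.60 ± 0.496 in 14B5. That of *MCL1* to *BCL2L11* moved far less, from 8.42 ± 0.170 to 9.27 ± 0.234 and 8.90 ± 0.0985, both genes having risen. *BCL2L11* to *BCL2* went from 10.2 ± 0.777 to 19.2 ± 3.40 and 26.8 ± 1.61. *BCL2L1* to *BAX* was 1.28 ± 0.0983 in WT, 0.955 ± 0.0703 in 11H1 and 1.03 ± 0.0649 in 14B5, and *BCL2L1* to *MCL1* was 0.890 ± 0.0332, 0.546 ± 0.00945 and 0.552 ± 0.0480. These ratios describe RNA and not protein. No test was run on them, as they combine members already described.

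The balance of the whole set was taken as the mean log2 CPM of the 4 pro-survival genes minus the mean log2 CPM of the 6 effector and BH3-only genes, so that each gene counts alike whatever its level. It was 0.626, 0.560 and 0.558 in WT, 0.628, 0.599 and 0.652 in 11H1 and 0.289, 0.295 and 0.284 in 14B5. The 11H1 libraries overlapped WT, and all 14B5 libraries were below all others. The mean balance was 0.581 ± 0.0386 in WT, 0.626 ± 0.0266 in 11H1 and 0.289 ± 0.00539 in 14B5 (SD, n = 3). The difference from WT was 0.045 in 11H1 and -0.29 in 14B5. No p-value is given for a score over chosen genes. In 14B5 the pro-survival mean was lower than in WT by a log2 difference of -0.15 and the mean of the pro-death genes higher by 0.14. In 11H1 these differences were -0.033 and -0.079, the latter made of 0.065 for the effectors and -0.15 for the BH3-only genes.

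This balance depended on how the genes were weighted. Taken instead as the log2 ratio of the summed RPKM of both sides, where the abundant *MCL1*, *BCL2L1* and *BAX* dominate, it was 0.291 ± 0.0604 in WT, 0.497 ± 0.0684 in 11H1 and 0.437 ± 0.0648 in 14B5 (SD, n = 3), and so was higher than in WT in both clones. The sign for 14B5 was then the reverse of that with equal weights. With equal weights, leaving out *BCL2* gave differences from WT of 0.23 in 11H1 and -0.039 in 14B5, and leaving out *MCL1* gave -0.11 and -0.53. Against the effectors alone the differences were -0.098 and -0.29, and against the BH3-only genes alone 0.12 and -0.29. In 11H1 the sign of the difference from WT thus changed with the genes counted on either side. In 14B5 the sign changed only when genes were weighted by level. The difference of -0.53 without *MCL1* was larger than with all members. Without *BCL2* little of it was left: -0.039 is smaller than the WT SD of 0.0557. The libraries then overlapped, at 1.53 to 1.57 in 14B5 and 1.54 to 1.64 in WT. No direction is given here for the set as a whole.

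**Figure D4:**
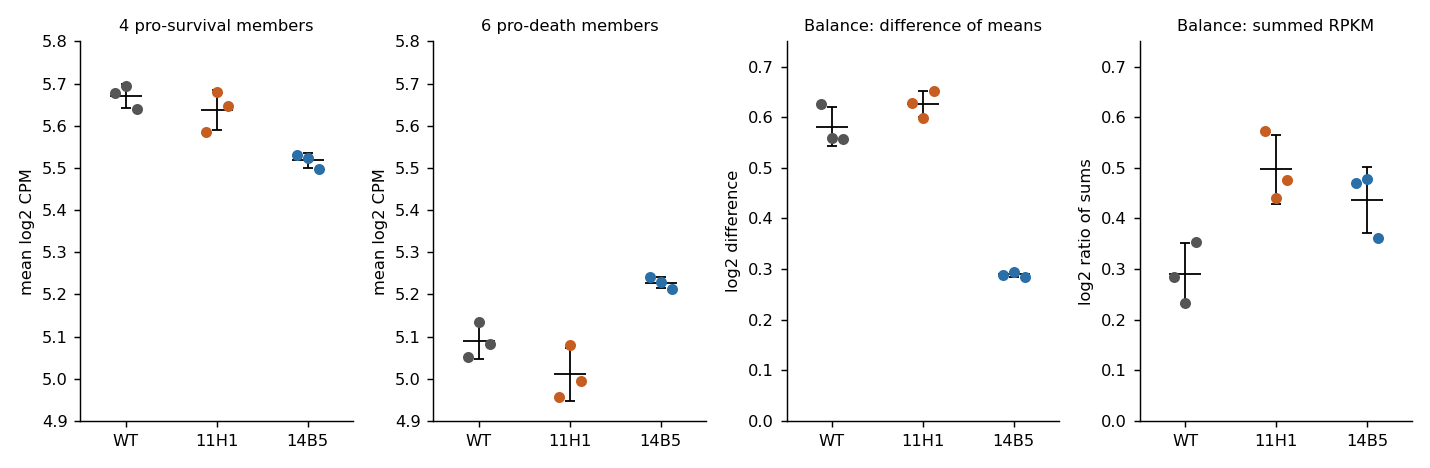
From left to right the panels give the mean log2 CPM of the 4 pro-survival genes, that of the 6 pro-death genes, their difference, and the log2 ratio of summed RPKM of the 2 sides. Points are libraries and bars are the mean and SD of 3 libraries; the first 2 panels do not start at 0. In the third panel 14B5 lies at 0.284 to 0.295, under WT, and in the fourth at 0.362 to 0.477, over WT.

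With both clones pooled (6 libraries against 3), 6 of 10 members passed the test, 2 higher and 4 lower, where 32.0% of all tested genes passed it (14.3% higher and 17.7% lower). *BCL2* had a log2 fold change of -0.75 (SE 0.14, adjusted p = 0.00270), *PMAIP1* of -0.47 (SE 0.085, adjusted p = 0.00225), *BID* of -0.34 (SE 0.088, adjusted p = 0.0140) and *BCL2L1* of -0.20 (SE 0.060, adjusted p = 0.0276). *MCL1* rose by 0.50 (SE 0.067, adjusted p = 0.000374) and *BCL2L11* by 0.39 (SE 0.078, adjusted p = 0.00403). These are the same 6 genes that passed in each clone. *BBC3* had 0.45 (SE 0.18, adjusted p = 0.0876, or 0.0496 without 11H1 1 and 0.0274 without 11H1 3), *BAX* 0.16 (SE 0.067, adjusted p = 0.0989), *BCL2L2* 0.10 (SE 0.14, adjusted p = 0.595) and *BAK1* 0.041 (SE 0.078, adjusted p = 0.724). The pooled libraries come from 2 clones, which are the independent KO events. All 6 deposited KO libraries were pooled. The study's own pooled comparison used fewer of them. Leaving out 1 library gave 4 to 7 members called. The call of *BCL2L1* passed in 10 of 16 alternatives and was lost without WT 1, WT 2, WT 3 or 11H1 2 (adjusted p = 0.0519 to 0.128), and that of *BID* was lost without WT 2 (adjusted p = 0.0722). The libraries did not overlap for 6 members, where 36.6% of all tested genes did not.

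Genes on a chromosome segment that is gained or lost move together, so each member was set beside the tested genes within 5 Mb on either side. *BCL2L11* moved against its surroundings. Its log2 fold change was 0.30 in 11H1 and 0.46 in 14B5, while the median of its 47 tested neighbours was -0.62 in 11H1 and -0.61 in 14B5. The interquartile range of these neighbours was -1.004 to -0.098 in 11H1 and -1.17 to -0.43 in 14B5, so *BCL2L11* lay above it in each clone. *BCL2* had 16 tested neighbours with medians of -0.13 in 11H1 and -0.022 in 14B5, and lay below their interquartile range in both. *PMAIP1*, whose 23 neighbours had medians of -0.14 and -0.035, also lay below the range of its neighbours in both clones. *BCL2* and *PMAIP1* lie within 5 Mb of each other on chromosome 18, so each is among the other's neighbours and they are not separate cases. In 11H1 the lower ends of their ranges were -0.53 and -0.48, close to the -0.61 of *BCL2* and the -0.54 of *PMAIP1*. *MCL1*, among 192 neighbours with medians of 0.046 and -0.039, lay above the range of its neighbours in both clones. *BBC3*, at 0.69 in 14B5, lay above the interquartile range of its 253 neighbours, whose median was -0.0055 and upper end 0.21. In 11H1 it lay inside the range. *BBC3* and *BAX* lie within 5 Mb of each other on chromosome 19, so each is among the other's neighbours. *BID* lay below the range of its 80 neighbours in 11H1 and inside the range in 14B5. *BCL2L1*, *BCL2L2*, *BAX* and *BAK1* lay inside the range of theirs in both clones. DNA copy number was not measured here.

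**Figure D5:**
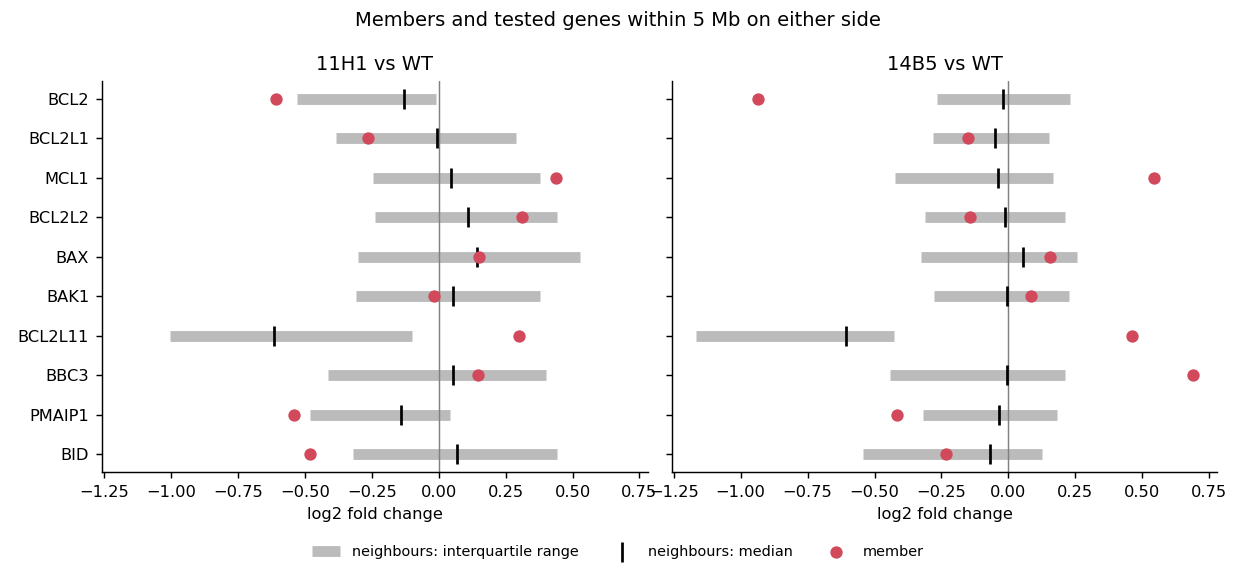
Red points are the log2 fold change of each member against WT, grey bars the interquartile range and black ticks the median of the tested genes within 5 Mb on either side, for 11H1 (left) and 14B5 (right). Only for *BCL2L11* does the whole grey bar lie on the opposite side of 0 from the member in both clones.

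A further 13 genes of the family were looked up. *BCL2L10*, *HRK* and *BCL2L14* were too low to test, and *BCL2A1* was tested in 11H1 but not in 14B5. In 11H1 vs WT 1 of 10 tested genes was higher and 3 were lower, and in 14B5 vs WT 2 of 9 were higher and 3 lower. Both counts are read beside the 64.6% and 53.5% of all tested genes that passed, and 4 of 10 in 11H1 is below that share. The medians were -0.19 and -0.035, beside -0.0066 and -0.014 for all tested genes. *BNIP3* and *BNIP3L*, which encode mitochondrial proteins that act in mitophagy and are induced by low oxygen, fell in both clones. *BNIP3* was at 58.9 to 72.7 CPM in WT, 4.61 to 5.07 CPM in 11H1 and 27.4 to 38.0 CPM in 14B5. Its log2 fold changes were -3.76 (SE 0.087, adjusted p = 2.92e-11) and -1.05 (SE 0.11, adjusted p = 3.28e-05). *BNIP3L* fell by 0.97 in 11H1 and by 0.29 in 14B5 on the log2 scale (adjusted p = 7.03e-08 and 0.0109).

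The remaining BH3-only genes differed between the clones. *BAD*, whose protein binds BCL-XL and *BCL2*, was at 15.5 to 20.7 CPM in WT, 14.5 to 16.4 CPM in 11H1 and 22.9 to 23.9 CPM in 14B5, with log2 fold changes of -0.19 (adjusted p = 0.125) and 0.40 (adjusted p = 0.00610). *BIK* had -0.21 (adjusted p = 0.311) and 0.40 (adjusted p = 0.0496). *BMF*, at 4.70 to 5.90 CPM in WT and 2.73 to 2.91 CPM in 14B5, had -0.088 in 11H1 (adjusted p = 0.536) and fell by 0.90 in 14B5 (adjusted p = 0.000107). *BAD*, *BIK* and *BBC3* were thus higher and *BMF* lower in 14B5, while none of these 4 passed in 11H1, and the direct test separated the clones for each of them. Of all tested genes 53.5% passed in 14B5 vs WT, 64.6% in 11H1 vs WT and 63.7% in the direct test.

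Of the divergent family genes, *BCL2L15* rose in 11H1 by 1.49 on the log2 scale (SE 0.19, adjusted p = 2.54e-05), from 0.535 to 0.713 CPM in WT to 1.67 to 1.78 CPM. In 14B5 it had 0.077 (adjusted p = 0.790). *BCL2L13* fell by 0.19 in 11H1 (adjusted p = 0.00419) and had -0.035 in 14B5 (adjusted p = 0.580). *BCL2L12* had 0.051 and 0.20 (adjusted p = 0.597 and 0.0520). *BOK*, an effector-like gene, was at 0.335 to 0.671 CPM in all libraries and had -0.39 and -0.25 (adjusted p = 0.264 and 0.447). *BCL2A1*, a survival gene of blood cells, was at 0.105 to 0.325 CPM in WT and had 0.12 in 11H1 (adjusted p = 0.818).

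Downstream of the pore, 18 genes of the apoptosome, the caspases and their inhibitors were tested. In 11H1 3 were higher and 7 lower (median log2 fold change -0.13, beside -0.0066 for all genes), and in 14B5 5 were higher and 4 lower (median 0.012, beside -0.014). Neither 10 of 18 nor 9 of 18 exceeded the share of all tested genes that passed, 64.6% in 11H1 and 53.5% in 14B5. The nuclease gene *ENDOG* fell by 0.94 in 11H1 (adjusted p = 6.59e-05), where the caspase inhibitor-like gene *BIRC6* rose by 0.56 (adjusted p = 4.03e-05) and *CASP2* by 0.40 (adjusted p = 0.000139). In 14B5 *BIRC3* fell by 0.58 (adjusted p = 0.000499), and *BIRC5*, which encodes survivin, and *CASP6* rose by 0.49 and 0.39 (adjusted p = 9.62e-05 and 8.61e-05). Smaller rises passed for *CASP2* in 14B5 (0.14, adjusted p = 0.0218, edgeR) and for *BIRC5* in 11H1 (0.14, adjusted p = 0.0377, edgeR).

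The death receptor pathway reaches mitochondria through *BID*. Of 11 genes tested, 8 were lower and 2 higher in 11H1 (median -0.24) and 7 lower and 3 higher in 14B5 (median -0.25). Of all tested genes 32.8% were lower in 11H1 and 28.7% in 14B5, with medians of -0.0066 and -0.014. *TNFRSF10B*, a receptor for the ligand TRAIL, fell by 1.63 in 11H1 (adjusted p = 8.01e-10) and by 1.61 in 14B5 (adjusted p = 6.49e-08). *TNFSF10*, which encodes TRAIL, fell by 0.74 in 11H1 and by 0.25 in 14B5 (adjusted p = 1.65e-06 and 0.00327, edgeR). *CASP10* fell by 0.37 in 11H1 and by 0.51 in 14B5 (adjusted p = 3.07e-05 and 2.83e-05, edgeR). *CASP8*, the caspase that cuts *BID*, rose by 0.30 and 0.15 (adjusted p = 8.66e-05 and 0.0175). *RIPK1* rose by 0.35 in 11H1 and by 0.14 in 14B5 (adjusted p = 5.22e-05 and 0.0238, edgeR). *FADD* went opposite ways, with -0.22 in 11H1 and 0.18 in 14B5 (adjusted p = 0.0189 and 0.0251, edgeR).

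Among 11 genes for partners of *BAX* and BAK and for enzymes that set the turnover of *MCL1*, 3 were higher and 6 lower in 11H1 (median -0.19), and 3 were higher and 2 lower in 14B5 (median 0.065), where 64.6% and 53.5% of all tested genes passed. The 5 of 11 called in 14B5 is below that share. *VDAC1* and *VDAC2* encode channels of the outer membrane, the latter a partner of BAK and *BAX*. *VDAC1* fell by 1.04 in 11H1 and by 0.84 in 14B5 (adjusted p = 2.19e-09 and 1.44e-07) and *VDAC2* by 0.45 and 0.16 (adjusted p = 2.02e-06 and 0.0117). *FBXW7*, a ubiquitin ligase subunit that targets *MCL1*, rose by 0.63 and 0.35 (adjusted p = 2.90e-07 and 0.000120). *HUWE1*, another ligase for *MCL1*, rose by 0.60 in 11H1 (adjusted p = 1.84e-05), and the deubiquitinase gene *USP13* by 0.38 in 14B5 (adjusted p = 0.000170).

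Of 16 genes for transcription factors known to act on the members, 7 were higher and 4 lower in 11H1 (median 0.12) and 5 higher and 4 lower in 14B5 (median 0.080). These counts are near the shares of all tested genes that passed, 64.6% and 53.5%, so nothing is read from them. *TP73* rose by 1.49 and 1.88 (adjusted p = 1.97e-07 and 3.11e-07). *DDIT3*, a stress factor known to act on *BCL2L11*, rose by 0.42 in 11H1 (adjusted p = 0.00137). *EGR1* fell by 0.40 in 11H1 and by 0.95 in 14B5 (adjusted p = 0.0421 and 0.000392), *STAT5A* by 0.19 in 11H1 (adjusted p = 0.00215) and *FOXO1* by 0.24 in 14B5 (adjusted p = 0.0287). No link between any of these factors and a member was tested.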

How the data were processed

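The data are mRNA-seq of 9 libraries of untreated SET2 cells in 3 groups of 3. The authors deposited 1 table of RSEM expected counts (estimated counts per gene, not normalized). The submitters' processing notes name STAR 2.7.9a, RSEM, Picard and GRCh38; the annotation, and whether the counting used strand, are not given in the sources used here. The labels name a SMARTER kit and the study's methods a stranded kit. The table holds 60754 entries, of which 92 spike-in entries, all at 0, were left out.

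The 10 members and all gene lists were chosen with earlier results of these data known. Expected counts were rounded to whole numbers, genes were filtered with filterByExpr and libraries scaled by TMM. Groups were compared by the quasi-likelihood F test of edgeR 4.0.16 (R 4.3.3; limma 3.58.1, DESeq2 1.42.0), with Benjamini-Hochberg adjustment over all genes tested and a threshold of 0.05. The comparisons were 11H1 vs WT, 14B5 vs WT, 11H1 vs 14B5 and both clones vs WT. The standard error is the log2 fold change divided by the square root of F. The fit was tested on simulated data in which the clones did not differ. That does not cover the spread of the pooled comparison, in which differences between the clones count as error. CPM used TMM-scaled library sizes over all 9 libraries, and RPKM divided CPM by merged exon length in kilobases from GENCODE v29, matched by gene identifier, which placed 96.6% of the genes. Log2 CPM used a prior count of 2. Promoter windows came from RefSeq (GRCh38.p14). In a library, 3 counts was taken as the limit that a count of 0 allows, which covers counting error only. Some listed genes and 1 gene list are not reported here. All members and other family genes are named, and of each further list reported the 2 largest rises and 2 largest falls per clone among genes past the threshold with a mean of at least 1 CPM. Alternatives were size factors or the Wald test from DESeq2, unrounded values in limma-voom, no filter or at least 10 counts in every library, a block for the replicate number, all 3 groups in 1 fit, and each library left out.

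No pair of replicates agreed within sampling noise, so none was taken for a library deposited again. This does not show that they came from separate cultures. Correlations of same-numbered deviations from the group means were -0.15 to 0.058, so the numbers were not taken to pair the samples.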

Additional observations from a re-analysis of the deposited data

Results flagged for a closer look

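The results below were picked out because the direct test of the clones against each other passed, as it did for 63.7% of all tested genes. Loss of *DYRK1A* and the founding of a clone cannot be told apart in such a difference. All values are log2 differences, 11H1 minus 14B5 (edgeR, adjusted p below 0.05). Among the members *BCL2L2* (0.44) and *BCL2* (0.32) were higher in 11H1, and *BBC3* (-0.56), *BID* (-0.26), *BCL2L11* (-0.18), *BCL2L1* (-0.13) and *MCL1* (-0.12) were lower. For *BCL2*, *MCL1* and *BCL2L1* this call was lost when 1 of several libraries was left out, as given above.

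Among the other family genes *BCL2A1* (1.63), *BCL2L15* (1.39) and *BMF* (0.79) were higher in 11H1, and *BNIP3* (-2.72), *BNIP3L* (-0.70), *BIK* (-0.62), *BAD* (-0.60), *BCL2L13* (-0.17) and *BCL2L12* (-0.16) were lower. *BCL2A1* rests on 2 to 12 counts a library.

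Downstream of the pore and in the death receptor pathway *BIRC6* (0.53), *BIRC3* (0.37), *CASP2* (0.24), *RIPK1* (0.19) and *CASP8* (0.14) were higher in 11H1, and *ENDOG* (-0.74), *CASP6* (-0.52), *TNFSF10* (-0.51), *FADD* (-0.42) and *BIRC5* (-0.37) were lower. Of the partners and turnover enzymes *HUWE1* (0.59) and *FBXW7* (0.26) were higher, and *VDAC2* (-0.31), *USP13* (-0.28) and *VDAC1* (-0.22) lower. Of the transcription factors and other listed genes *EGR1* (0.53), *CDKN1A* (0.44), *BTG2* (0.31) and *DDIT3* (0.21) were higher, and *CCNG1* (-0.69), *TP73* (-0.40) and *SESN1* (-0.34) lower. *CDKN1A* and *BTG2* were higher than in WT in both clones, by log2 fold changes of 2.10 and 1.42 in 11H1 and of 1.64 and 1.10 in 14B5. *CCNG1* and *SESN1* were lower than in WT in both clones, with log2 fold changes of -1.10 and -0.53 in 11H1 and of -0.43 and -0.20 in 14B5.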

How the results depend on the processing

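Over settings other than left-out libraries, 261 of the members' log2 fold changes kept their direction and side of the threshold, 10 lost the threshold, 8 gained it and 1 changed sign; with a library left out these numbers were 238, 20, 8 and 4. The sign changes were those of values near 0: *BAX* in 11H1 vs 14B5 was 0.000333 with at least 10 counts in every library and -0.077 to 0.023 with a library left out (above 0 without 11H1 1 or 14B5 3). *BAK1* in 11H1 vs WT was -0.070 to 0.056 (above 0 without WT 2), and in the pooled comparison -0.0075 to 0.13 (below 0 without WT 3). The genes called in the pooled comparison were 5471, and 10245 in the fit of all 3 groups, in which the spread between the clones is no longer counted as error; of the listed pathway genes 30 were called, and 62 in that fit.

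Leaving out 1 library gave 7 to 8 members called in 11H1 vs WT, 6 to 8 in 14B5 vs WT, 4 to 6 in 11H1 vs 14B5 and 4 to 7 in the pooled comparison. The genes called were then 9685 to 11091, 7597 to 9040, 9193 to 10204 and 3677 to 5531, and the listed pathway genes 53 to 59, 41 to 52, 54 to 66 and 17 to 31. The pathway count of the pooled comparison fell to 17 without WT 1, 17 without WT 2 and 18 without WT 3; the cause was not tested.

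The replicate numbers did not pair the samples. With the replicate number as a block, 8, 6, 6 and 5 members were called in the 4 comparisons and 10710, 7529, 10099 and 3937 genes; the listed pathway genes were 59, 38, 61 and 17.

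The balance moved with its definition. Against WT in 11H1 (0.045) it was 0.21 from summed RPKM, -0.098 against the effectors only, 0.12 against the BH3-only genes only, 0.23 without *BCL2* and -0.11 without *MCL1*. In 14B5 (-0.29) it was 0.15 from summed RPKM, -0.039 without *BCL2*, -0.53 without *MCL1* and -0.24 with *BAD*, *BIK* and *BMF* added. Between the clones (0.34) it was 0.060, 0.19, 0.41, 0.27 and 0.42 in the order given for 11H1, and 0.32 with those 3 genes added. Leaving out a library gave 0.032 to 0.067, -0.30 to -0.27 and 0.32 to 0.35. The members had at least 149 counts in every library. *BCL2*, with the fewest, had standard errors of 0.10 to 0.14, beside 0.044 to 0.067 for *MCL1*.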
